A study of Homo sapiens with 2 samples.

Results

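Expression of the Notch receptors and of the proteases that cleave them was examined in cells labelled A549, with NICD1 overexpression or a vector control. The set comprised 9 genes of the 19198 with a usable row, taken by gene symbol: the 4 receptors NOTCH1, NOTCH2, NOTCH3 and NOTCH4, the 2 membrane proteases ADAM10 and ADAM17, and 3 subunits of γ-secretase, PSEN2, NCSTN and APH1A. The libraries came from cells labelled A549, an established human line of lung adenocarcinoma, a form of non-small cell lung cancer (NSCLC). Not all cell markers went with this label, as given below. A549-NICD1 cells overexpressed NICD1, the intracellular domain of NOTCH1, and A549-Vector cells were the vector control. According to the methods, the NICD1 open reading frame was carried by pSin-EF2, a lentiviral vector with an antibiotic resistance gene. PolyA RNA was sequenced in 1 library of each condition, and the depth was 48528434 reads for A549-NICD1 against 48602848 for the control. With 1 library per condition no difference given here had a replicate check, and no p-value is given. The question posed by the design was which genes differ in expression when Notch1 signalling is activated.

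Notch receptors are single-pass membrane proteins that act as membrane-tethered transcription factors. The receptor is cut by furin on its way to the cell surface, and ligand on a neighbouring cell then opens a second site in the extracellular juxtamembrane region, which is cut by ADAM10 or, in some settings, ADAM17. γ-Secretase finally cuts within the membrane and releases the intracellular domain, which enters the nucleus and activates transcription with RBPJ, the DNA-binding factor of the pathway. An NICD1 transgene enters this chain after the last cleavage and does not need the receptors or proteases described here.

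The levels of the receptors were very unequal, and a link between promoter sequence and level was not tested. The 250 bases before the RefSeq start of each receptor gene are shown, from the GRCh38.p14 assembly. They run 5′ to 3′ on the gene's own strand, which is the minus strand for all 4. Capitals mark CG dinucleotides, whose density sets apart CpG island promoters from other promoters. The stretches lie at chr9:136546049-136546298 for NOTCH1, chr1:120069663-120069912 for NOTCH2, chr19:15200996-15201245 for NOTCH3 and chr6:32224068-32224317 for NOTCH4.
NOTCH1: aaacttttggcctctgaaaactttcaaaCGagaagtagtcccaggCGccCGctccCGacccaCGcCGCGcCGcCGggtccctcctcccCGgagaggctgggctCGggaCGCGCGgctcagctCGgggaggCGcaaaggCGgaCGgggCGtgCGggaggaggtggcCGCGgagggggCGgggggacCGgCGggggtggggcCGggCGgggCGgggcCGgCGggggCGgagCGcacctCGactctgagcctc
NOTCH2: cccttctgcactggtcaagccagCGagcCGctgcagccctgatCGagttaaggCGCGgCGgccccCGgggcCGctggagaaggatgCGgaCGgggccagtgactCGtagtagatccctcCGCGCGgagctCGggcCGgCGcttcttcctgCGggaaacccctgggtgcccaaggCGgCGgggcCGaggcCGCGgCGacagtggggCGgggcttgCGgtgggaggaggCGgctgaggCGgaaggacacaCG
NOTCH3: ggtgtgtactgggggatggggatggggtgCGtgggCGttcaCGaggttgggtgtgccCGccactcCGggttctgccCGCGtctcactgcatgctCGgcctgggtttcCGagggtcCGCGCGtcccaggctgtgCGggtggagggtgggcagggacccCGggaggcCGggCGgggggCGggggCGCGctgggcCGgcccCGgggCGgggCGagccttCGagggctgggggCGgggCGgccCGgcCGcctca
NOTCH4: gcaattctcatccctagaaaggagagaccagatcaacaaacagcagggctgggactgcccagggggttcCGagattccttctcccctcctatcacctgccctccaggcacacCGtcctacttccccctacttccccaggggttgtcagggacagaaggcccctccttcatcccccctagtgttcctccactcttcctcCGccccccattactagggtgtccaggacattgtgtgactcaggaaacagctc
The stretch before NOTCH4 held 3 CG pairs, against 33 for NOTCH1, 29 for NOTCH2 and 28 for NOTCH3. Over the full window of 300 bases, which adds the first 50 after the start, the members other than NOTCH4 held 25 to 42 CG pairs, NOTCH4 held 5, and the median of 35116 RefSeq promoters was 14.0. The letters TGGGAA, the core to which RBPJ binds, were searched on both strands of the same windows. They were found in 24.0% of all promoters and in 0 of the 9 members, and HES1 and HES5, classical Notch target genes, held 2 matches each. This says only that the letters are not in these windows. For NOTCH1, NOTCH2, NOTCH3 and PSEN2 the bases just after the RefSeq start were not found whole in a GENCODE 29 coding transcript. The windows of these and of the other members need not sit at the starts of the GENCODE loci given below. That of ADAM17, at chr2:9555781-9556080, lies wholly inside its locus of chr2:9488486-9556732 on the minus strand.

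The libraries were alike in depth and in the number of genes detected, but not in the share of reads taken by NOTCH1 and RFC4. Together these genes took 3.25% of the reads of A549-NICD1 and 0.0106% of those of A549-Vector, and 12212 and 12295 genes reached 1 FPKM (reads scaled to gene length and library depth, the level used throughout). The identity of the cells was checked against marker lists, and not all markers went with the label. Of 16 markers of A549, 6 reached 1 FPKM in both libraries and 9 were under 1 FPKM in both, with FGB, KRT7 and KRT19 listed at 0. All 7 markers of HEK293 cells reached 1 FPKM in both, among them CDKN2A, a gene known to be deleted in A549, at 138 FPKM in A549-NICD1 and 139 FPKM in A549-Vector. Summed, the HEK293 list stood at 300 FPKM in A549-NICD1 and 319 FPKM in A549-Vector. The A549 list summed to 326 FPKM and 178 FPKM, mostly from KRT8 (176 and 85.9 FPKM) and KRT18 (130 and 73.1 FPKM). Whether KRT8 and KRT18 tell A549 from HEK293 cells was not tested, so the sums do not weigh one identity against the other. The 5 endothelial markers were all under 1 FPKM, and 3 blood cell markers summed to 1.49 FPKM and 0.660 FPKM. The 3 fibroblast markers summed to 8.16 FPKM and 11.9 FPKM, mostly from COL1A1. The part of cell identity in the values below was not tested, and the libraries are called by their labels.

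NOTCH1, the receptor from which the transgene derives, was first examined as the check of the labels. It stood at 2865 FPKM in A549-NICD1, from 1293833 reads, against 5.40 FPKM in A549-Vector, from 2441 reads. It was therefore 551-fold higher in the library labelled with NICD1 overexpression (95% interval 529 to 573, for counting error only), a log2 fold change of 9.11. It was 3rd of all genes by level in A549-NICD1 and 9236th in A549-Vector, and it took 2.67% of all reads in the former and 0.00502% in the latter. Reads of the transgene and of the resident gene fall in the same row, so the level of the cell's own NOTCH1 in A549-NICD1 could not be told apart from that of the transgene. The level there is also spread over a length of 9306 bases, which is that of the whole NOTCH1 transcript and not of the intracellular domain, and so gives a lower figure per base than the transgene itself would have. NOTCH1 lies at chr9:136494433-136545786 on the minus strand of GRCh38, with 33 exons in GENCODE 29 after merging of overlapping ones. No window of 100 bases of its transcripts was found in those of another gene.

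The genes around NOTCH1 did not share its difference. Among the 20 nearest genes that passed the filter of 10 reads in one library or the other, the farthest of which lay 394649 bases away, log2 fold changes ran from -0.30 to 0.53 with a median of 0.08. The lowest was EGFL7, at 14.0 FPKM in A549-NICD1 and 17.8 FPKM in A549-Vector, and the highest was MAMDC4, at 1.81 FPKM and 1.30 FPKM. SEC16A, the closest at 10674 bases, stood at 28.2 FPKM and 28.3 FPKM. In the plot of log2 fold change by distance from NOTCH1, the NOTCH1 row stood alone. That row holds reads of the transgene, so the contrast says nothing about the resident gene at this locus.

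**Figure D1:**
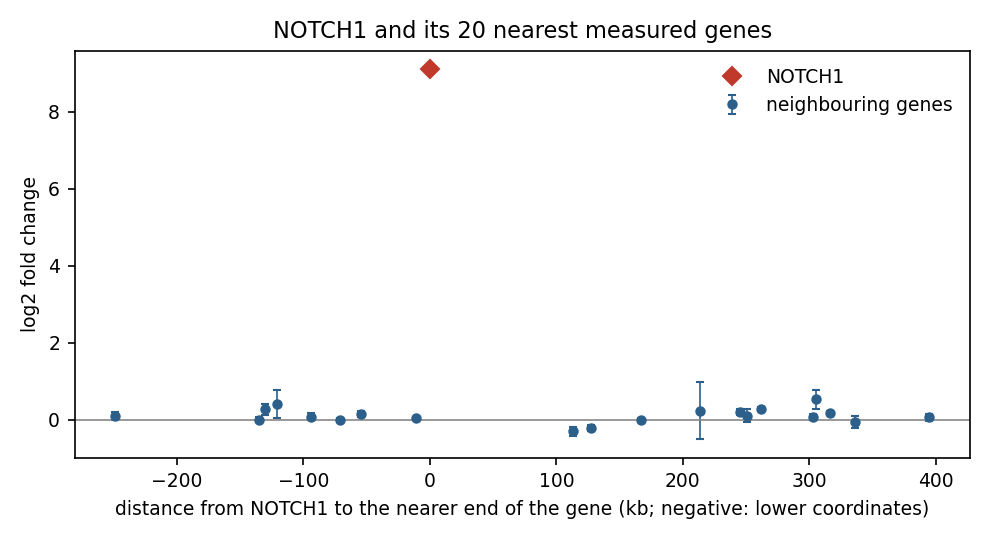
Log2 fold change of A549-NICD1 over A549-Vector (vertical axis) for NOTCH1, shown as a diamond, and its 20 nearest measured protein-coding genes, shown as circles, against the distance from NOTCH1 in kilobases (horizontal axis). Bars are 95% intervals for counting error. The NOTCH1 row, which holds reads of the transgene, stands at 9.11, and the neighbouring genes lie between -0.30 and 0.53.

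The order of the receptors differed between the libraries through NOTCH1 alone. NOTCH2 and NOTCH3 are receptors with broad expression in epithelium and smooth muscle, and NOTCH4 is best known from endothelium. In A549-Vector, NOTCH2 was the receptor with the highest level at 48.7 FPKM (counting interval 48.0 to 49.4), followed by NOTCH3 at 30.6 FPKM (30.0 to 31.1), NOTCH1 at 5.40 FPKM (5.18 to 5.62) and NOTCH4 at 0.244 FPKM (0.194 to 0.304). No 2 neighbours in this order had intervals that met, although the spread between cultures is not known. NOTCH2 thus made up 57.4% of the summed receptor level of 84.9 FPKM, NOTCH3 36.0%, NOTCH1 6.35% and NOTCH4 0.287%, and NOTCH2 exceeded NOTCH1 9.03-fold. In A549-NICD1 the NOTCH1 row made up 97.4% of a sum of 2940 FPKM. With NOTCH1 set aside, the remaining receptors summed to 75.5 FPKM in A549-NICD1 and 79.6 FPKM in A549-Vector, with NOTCH2 at 59.9% and 61.3% and NOTCH3 at 39.8% and 38.4%. The balance of NOTCH2 to NOTCH3 was therefore similar in both libraries, with a ratio of 1.50 in A549-NICD1 and 1.59 in A549-Vector.

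**Figure D2:**
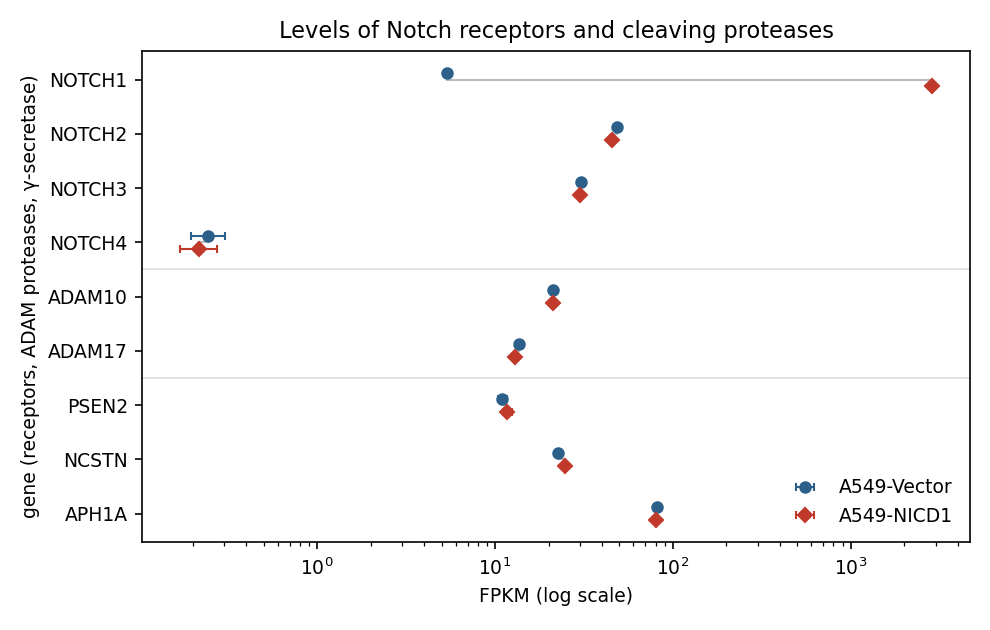
Level in FPKM (horizontal axis, log scale) of the 9 genes (vertical axis; receptors, ADAM proteases and γ-secretase subunits from top to bottom) in A549-Vector (circles) and A549-NICD1 (diamonds), 1 library each. Bars are 95% counting intervals and are mostly narrower than the symbols. NOTCH1 moves from 5.40 to 2865 FPKM while the symbols of the 8 other genes lie side by side.

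The receptors other than NOTCH1 differed little between the libraries. NOTCH2 stood at 45.2 FPKM in A549-NICD1, from 17302 reads, against 48.7 FPKM in A549-Vector, from 18684 reads. Its log2 fold change, from reads plus 0.5 after scaling of the libraries by their trimmed mean ratio, was -0.06 (95% counting interval -0.09 to -0.03), so that it was lower by more than counting error but at 0.962 of the control level. NOTCH3 stood at 30.0 FPKM in A549-NICD1 and 30.6 FPKM in A549-Vector, and its log2 fold change of 0.03 (-0.01 to 0.06) had an interval that held 0. The value is above 0 although the FPKM is lower because the scaling factor of A549-NICD1 was 0.964, and with depth alone the log2 fold change of NOTCH3 was -0.026. NOTCH4 stood at 0.217 FPKM in A549-NICD1, from 71 reads, and 0.244 FPKM in A549-Vector, from 80 reads. At this depth a difference in NOTCH4 was not detectable, since its log2 fold change of -0.12 had a counting interval of -0.60 to 0.36. In bulk RNA, fewer cells with a transcript and less of it per cell cannot be told apart, which holds for NOTCH4 and for every gene below.

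NOTCH2 and NOTCH4 rows can hold reads of other genes. NOTCH2 lies at chr1:119911553-120069626 on the minus strand, and 5 of its 226 windows of 100 bases (2.21%) were also found in transcripts of NOTCH2NLA, NBPF14, NBPF19, NBPF26 or AC239799.1. Only windows identical in every base were counted, so stretches that are alike with mismatches are not included. NOTCH2NL, the row for the partial NOTCH2 copies, stood at 6.56 FPKM in A549-NICD1 and 6.91 FPKM in A549-Vector, a log2 fold change of -0.02, and NOTCH2 exceeded it 6.89-fold and 7.06-fold. NOTCH4, at chr6:32194843-32224067 on the minus strand, shares 98 exonic bases with GPSM3 on the same strand. GPSM3 stood at 3.08 FPKM in A549-NICD1 and 3.76 FPKM in A549-Vector, well above NOTCH4, and how the counting treated the shared bases is not given in the sources used here. NOTCH3 lies at chr19:15159038-15200981 on the minus strand and had no such window or overlap.

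ADAM10 and ADAM17, which shed the extracellular domain of Notch and of many other membrane proteins, were at similar levels in both libraries. ADAM10 stood at 21.3 FPKM in A549-NICD1 and 21.1 FPKM in A549-Vector, from 5149 and 5117 reads, with a log2 fold change of 0.06 (counting interval 0.01 to 0.12), or 0.011 (-0.045 to 0.067) with depth alone. ADAM17, also known as the TNF-converting enzyme, stood at 13.0 FPKM and 13.7 FPKM, from 2774 and 2921 reads, with a log2 fold change of -0.02 (-0.09 to 0.06). ADAM10 was thus the more abundant sheddase transcript, with an ADAM10 to ADAM17 ratio of 1.63 in A549-NICD1 and 1.54 in A549-Vector. ADAM10 lies at chr15:58588807-58749978 and ADAM17 at chr2:9488486-9556732, both on the minus strand. ADAM17 overlaps IAH1 on the opposite strand by 1323 exonic bases, and IAH1 stood at 16.6 FPKM in A549-NICD1 and 15.9 FPKM in A549-Vector. The libraries are described as strand-specific in the study's supplement, but whether the counting used strand is not given in the sources used here.

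Among the γ-secretase subunits, NCSTN was slightly higher in A549-NICD1, PSEN2 was so under the scaling used but not with depth alone, and APH1A had an interval that held 0. PSEN2 encodes presenilin 2, one of the alternative catalytic subunits. It stood at 11.7 FPKM in A549-NICD1 and 11.0 FPKM in A549-Vector, from 1307 and 1231 reads, with a log2 fold change of 0.14 (counting interval 0.03 to 0.26). With depth alone the log2 fold change of PSEN2 was 0.089 and its interval, -0.025 to 0.202, held 0. NCSTN encodes nicastrin, the large glycoprotein subunit that takes part in substrate recruitment. It stood at 24.6 FPKM and 22.7 FPKM, from 3393 and 3134 reads, with a log2 fold change of 0.17 (0.10 to 0.24), which was the highest among the members other than NOTCH1. APH1A, a scaffold subunit of the complex, stood at 80.0 FPKM and 81.0 FPKM, from 7772 and 7884 reads. Its log2 fold change was 0.04 (-0.01 to 0.08), and -0.018 with scaling by depth alone.

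APH1A was the most abundant of these subunit transcripts in both libraries. In A549-Vector it exceeded NCSTN 3.57-fold and PSEN2 7.35-fold per length, and in A549-NICD1 3.25-fold and 6.82-fold. NCSTN exceeded PSEN2 2.06-fold and 2.10-fold. The paralogous scaffold subunit APH1B stood at 3.65 FPKM in A549-NICD1 and 3.73 FPKM in A549-Vector, so that APH1A exceeded it 21.9-fold and 21.7-fold. PSENEN, which encodes the small subunit needed for presenilin maturation, stood at 28.1 FPKM and 26.4 FPKM, with a log2 fold change of 0.14 (counting interval 0.02 to 0.27). PSEN2, NCSTN and APH1A all lie on chromosome 1, as does NOTCH2, at chr1:226870184-226896105 and chr1:160343272-160358952 on the plus strand and chr1:150265399-150269580 on the minus strand. NCSTN overlaps COPA by 129 exonic bases and APH1A overlaps C1orf54 by 490, in each case on the opposite strand. COPA stood at 40.5 FPKM in A549-NICD1 and 38.5 FPKM in A549-Vector, a log2 fold change of 0.13, and C1orf54 at 6.09 FPKM and 6.66 FPKM.

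Counted over the set, 1 of 9 members was past a log2 fold change of 1 upwards and 0 were past -1, where 4.28% and 2.20% of the 15276 genes that passed the read filter were. At a bound of 0.5 the same single member, NOTCH1, was above and 0 were below, against 8.59% and 7.80% of all genes. These shares rest in part on genes with few reads. Of the 13282 genes with at least 100 reads summed, 156 were above 1 and 512 above 0.5. In the same set, 85 were below -1 and 711 below -0.5. The 8 other members all lay within 0.2 of 0, between -0.12 for NOTCH4 and 0.17 for NCSTN, 5 of them above 0 and 3 below, with a median of 0.031. The bound of 0.2 was not planned and lies just past the value of NCSTN, so that all 8 fall within it is no result. Over all genes the median was -0.003 and 58.7% lay within 0.2, and among the 10156 genes with at least 1000 reads summed, a depth that all members except NOTCH4 reached, 73.5% did. The counting interval lay wholly above 0 for NOTCH1, ADAM10, PSEN2 and NCSTN, 4 of 9 members, and wholly below 0 for NOTCH2, 1 of 9. Among all genes this was so for 27.9% and 28.7%. With scaling by depth alone only NOTCH1 and NCSTN, 2 of 9, had an interval above 0 and NOTCH2 one below, against 20.3% and 38.0% of all genes. An interval that excludes 0 was common in these libraries and says nothing about the spread between cultures. Scaling by depth alone moved the median of all genes by -0.053, close in size to or above the differences of NOTCH2, NOTCH3, ADAM10, ADAM17 and APH1A.

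**Figure D3:**
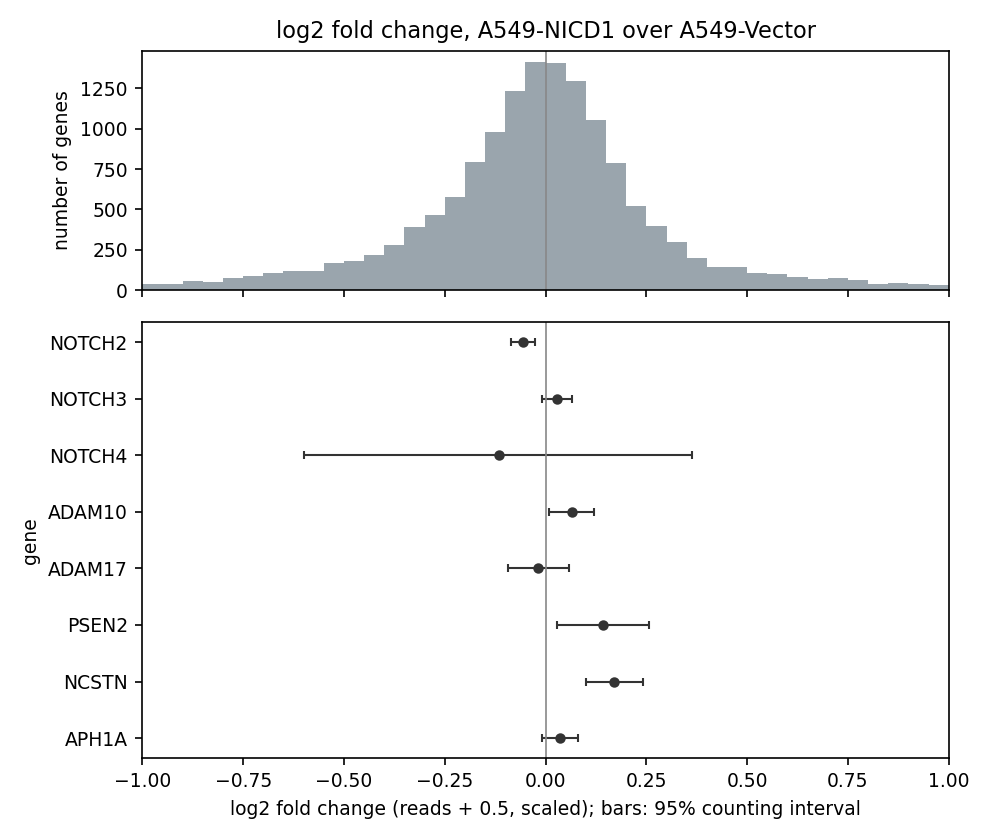
Upper panel, number of genes (vertical axis) by log2 fold change of A549-NICD1 over A549-Vector (horizontal axis, drawn from -1 to 1) for the 15276 genes that passed the read filter. Lower panel, log2 fold change of the 8 members other than NOTCH1 on the same axis, with 95% counting intervals as bars. These members lie between -0.12 for NOTCH4 and 0.17 for NCSTN, at percentiles 31.0 and 77.5 of these genes. Only NOTCH4 has a wide interval.

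Genes that act with or on these receptors and proteases, or are related to them, were examined next, in 8 lists called partner lists. The lists of further membrane ADAM proteases, presenilin-related proteases and NOTCH2 copies hold related genes. The counts below cover all lists together. Of 38 genes listed, 34 had a row and 31 passed the filter of 10 reads. Of these, 0 were above a log2 fold change of 1 and 1 was below -1, against 4.28% and 2.20% of all genes that passed the filter. At a bound of 0.5, 1 was above and 1 below, against 8.59% and 7.80%, and the median was 0.079. The shares over all genes rest in part on genes with few reads. Among the 13282 genes with at least 100 reads summed, 512 were above 0.5 and 711 below -0.5, which are smaller shares. The TspanC8 tetraspanins, which carry ADAM10 out of the endoplasmic reticulum and steer it to substrates, had a median of 0.03 over 6 genes. Within this list the signs were mixed, with TSPAN14 at 9.09 FPKM in A549-NICD1 and 11.0 FPKM in A549-Vector (log2 fold change -0.22) and TSPAN17 at 24.0 FPKM and 21.2 FPKM (0.23). TSPAN5 had a log2 fold change of -0.20, TSPAN10 of 0.23, TSPAN15 of 0.08 and TSPAN33 of -0.03. The partners of ADAM17, namely the inactive rhomboids RHBDF1 and RHBDF2 and their binding protein FRMD8, had log2 fold changes of 0.08, 0.17 and 0.14.

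Among the inhibitors of ADAM proteases, RECK, a membrane-anchored inhibitor, was the one with a difference past counting error downwards. RECK stood at 3.21 FPKM in A549-NICD1 and 4.45 FPKM in A549-Vector, a log2 fold change of -0.42 (counting interval -0.55 to -0.29). TIMP1 stood at 51.8 FPKM and 50.0 FPKM with a log2 fold change of 0.10, and TIMP3, which inhibits ADAM17, had a log2 fold change of -0.04. The list had a median of -0.04.

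Among the 7 genes of receptor maturation, with a median of 0.03, FURIN and MFNG were farthest from 0. FURIN, the protease of the first receptor cleavage, stood at 47.9 FPKM in A549-NICD1 and 35.1 FPKM in A549-Vector, from 4947 and 3636 reads, a log2 fold change of 0.50 (counting interval 0.44 to 0.56). MFNG, a fringe glycosyltransferase that modifies the EGF repeats of Notch, was low in both libraries, with 25 reads for A549-NICD1 against 59 in A549-Vector. Its log2 fold change was -1.17 (-1.92 to -0.49). The other fringe genes had log2 fold changes of 0.03 for LFNG and -0.03 for RFNG, and the O-glycosyltransferase genes EOGT, POFUT1 and POGLUT1 had 0.25, 0.02 and 0.08.

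The further membrane ADAM proteases had the highest median of the lists, at 0.31 over 5 measured genes. ADAM19 stood at 6.20 FPKM in A549-NICD1 and 3.80 FPKM in A549-Vector, from 1965 and 1206 reads, a log2 fold change of 0.76 (counting interval 0.66 to 0.86). ADAM12 and ADAM8, both near 1 FPKM, had 0.34 and 0.31, and ADAM15 and ADAM9, both above 20 FPKM, had 0.11 and -0.04. The more abundant ADAM genes were thus close to 0, as ADAM10 and ADAM17 were. ADAM28 and ADAM33 had fewer than 10 reads in each library.

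**Figure D4:**
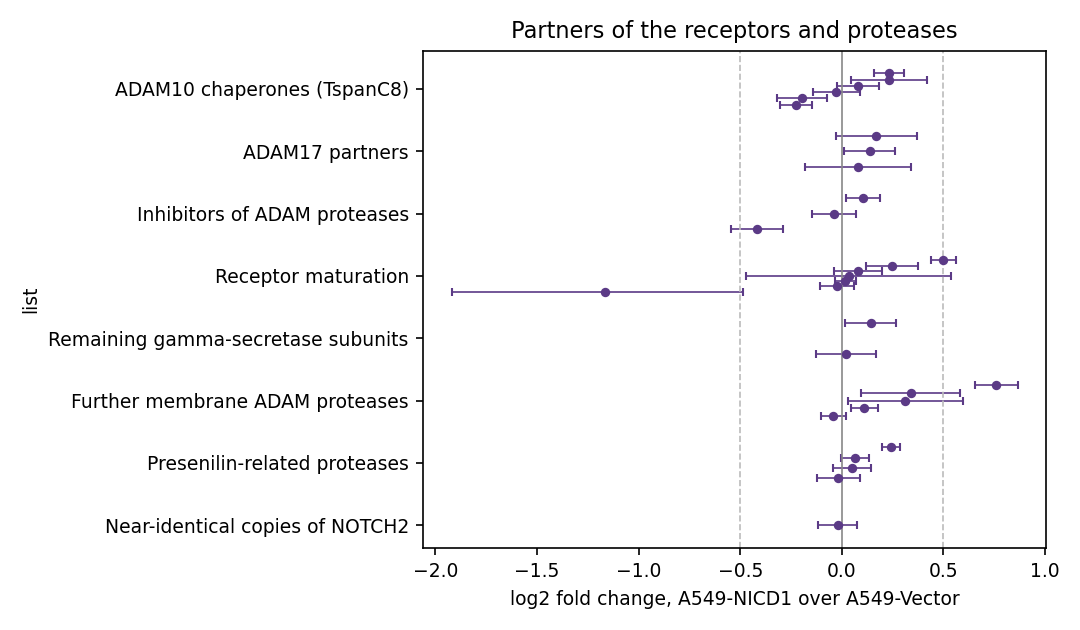
Log2 fold change of A549-NICD1 over A549-Vector (horizontal axis) for each measured gene of the 8 partner lists (vertical axis), with 95% counting intervals as bars and dashed lines at -0.5 and 0.5. Of the 31 genes, MFNG lies lowest at -1.17 and ADAM19 highest at 0.76, with FURIN at 0.50.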

How the data were processed

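Gene expression was measured in 1 mRNA-sequencing library of A549-NICD1 and 1 of A549-Vector, grouped by their genotype labels. The authors deposited 1 value per gene and library, which was treated as FPKM. The unit was read from the values, since no source names it. Bowtie2, HTSeq and hg38 are named in the submitters' processing notes without versions. The libraries were strand-specific according to the study's supplement. The annotation and the strand setting of counting are not given in the sources used here.

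The depths were found from the files as those at which gene lengths came out as whole numbers, among 2070 genes, and they met 188 transcript lengths of GENCODE 29 against 40 at the next best depth. Of 17178 genes above 0, 17176 gave whole reads, which summed to 96.6% and 96.4% of the depths. For each gene the whole length nearest to the median coding transcript was taken, so reads of a gene are known up to a whole-number factor, which bears on filters, pseudocounts and intervals but not on ratios. It was that of an annotated transcript for 2 members. The 27 rows whose names had become date numbers were not used.

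The log2 fold change was that of reads plus 0.5 over depths, with a trimmed mean of log ratios (30% of ratios and 5% of expression trimmed at each end) as scaling. It understates the change of low genes. Intervals are 95% Clopper-Pearson or exact Poisson intervals. They cover counting error only: the libraries have no molecular identifiers, so each read need not be its own molecule. A count of 3 reads, the floor, is 0.0215 FPKM at the median length. Counts of genes cover those that had 10 or more reads in one library or the other. The design foresaw no test.

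Members, partner lists and marker lists were chosen with earlier results of these data known. The genes named were the members, the partner and marker lists, RFC4 and, for each member, the 3 genes nearest to it in log2 fold change among genes with at least 100 reads summed and a mean FPKM within 2-fold of its own (for NOTCH1, among all genes with 100 reads). Not every such gene is printed. Neighbours of NOTCH1 and genes with shared or overlapping sequence were named by position. Promoters were those of RefSeq, in which all 9 members were matched, and loci were those of GENCODE 29, in which 18787 gene names were found. Sharing was measured in windows of 100 bases taken every 50 bases, counted only where identical in every base. Other scalings, pseudocounts and low-value filters were tried as alternatives. All steps were run in Python 3.11.15 with numpy 2.4.6, pandas 2.3.3 and scipy 1.17.1. Only the recovery of depths and reads, the scaling, the log2 fold changes and the intervals were tested on simulated data.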

Additional observations from a re-analysis of the deposited data

How the results depend on the processing

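With 1 library per condition no library could be left out, and no spread between cultures is known. No paired analysis was possible because there was 1 library a condition. Of 54 values of members under other scalings and pseudocounts, 50 lay inside the counting interval of the value reported. The 72 medians of partner lists under the 9 alternatives all lay inside the counting interval of the middle gene of the list, or the mean interval of the middle pair where the number of genes was even. With scaling by depth alone the median changed sign for the TspanC8 list (0.026 to -0.027) and for receptor maturation (0.035 to -0.019). Scaling by depth alone gave -0.109 for NOTCH2, -0.026 for NOTCH3 and -0.018 for APH1A, the last pair with a change of sign, and moved the median of all genes by -0.053. A pseudocount of 1 FPKM gave 8.861 for NOTCH1, which ranged up to 9.104 under the others. NCSTN stayed between 0.117 and 0.170, PSEN2 between 0.089 and 0.142 and ADAM10 between 0.011 and 0.065.

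Counts over all genes depended on low genes. Genes above a log2 fold change of 1 (654 reported) numbered 315 with a pseudocount of 0.1 FPKM, 45 with 1 FPKM, 1512 with no filter, 156 with at least 100 reads and 88 with a mean FPKM of 1 or more. Genes below -1 (336) numbered 129, 7, 792, 85 and 32 in the same order. Genes above 0.5 (1312) numbered 267 with a pseudocount of 1 FPKM, 2318 with no filter, 512 with at least 100 reads and 339 with a mean FPKM of 1 or more. Genes below -0.5 (1191) numbered 214 with a pseudocount of 1 FPKM, 711 with at least 100 reads and 472 with a mean FPKM of 1 or more. Depth limits NOTCH4 and MFNG, which had 71 and 25 reads in A549-NICD1.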

Other observations

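The presenilin-related proteases, which cut within membranes as γ-secretase does, had a median log2 fold change of 0.06 over 4 measured genes. HM13, which encodes signal peptide peptidase, stood at 89.6 FPKM in A549-NICD1 and 78.6 FPKM in A549-Vector, a log2 fold change of 0.24 (95% counting interval 0.20 to 0.29). SPPL2A, SPPL2B and SPPL3 had log2 fold changes of -0.02, 0.05 and 0.07, and SPPL2C was listed at 0 in both libraries.

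Genes with a log2 fold change like that of each member were looked up. NOTCH1 had no close match, and the nearest of 13281 genes with at least 100 reads were PROK1 (170 reads against 1 in A549-Vector), RFC4 (281203 and 2728 reads) and TFF1 (172 and 2 reads). RFC4, a subunit of the clamp loader of DNA replication, stood at 4075 FPKM in A549-NICD1 and 39.5 FPKM in A549-Vector, a log2 fold change of 6.74, and was above NOTCH1 by level in A549-NICD1. The study names RFC4 as upregulated by NICD1 and, from further experiments, proposes that RBPJ induces it directly. Whether the A549-NICD1 cells also carried an RFC4 construct is not stated in the sources used here. Reads of such a construct and of the resident gene could not be told apart, and the origin of the difference was not tested. For the other members, the 3 nearest genes of like level lay within 0.0003 in log2 fold change, or within 0.0217 for NOTCH4. The 3 nearest were KIFC1, SLBP and KPNA6 for NOTCH2 among 2996 genes, NIPA2, DNM1L and NADK for NOTCH3 among 4230, and NLRP14, ABI3BP and RAB43 for NOTCH4 among 329. FNTA and USP8 were among the 3 nearest to ADAM10, and RAB2B, SDHAF2 and CCDC77 were nearest to ADAM17. INPP5E, TOR1AIP2 and RNF13 were nearest to PSEN2, and UBAP2, CSTF1 and NEK4 to NCSTN. PSMD11 and CIAO1 were among the 3 nearest to APH1A. With 2 libraries likeness is that of a single ratio, and it gives no ground for a link between these genes.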
